A study of Mus musculus with 6 samples.

Results

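The genes described here are Foxp3 and 8 genes that regulatory T cells are known to express: Ikzf2, Ikzf4, Nrp1, Lrrc32, Itgb8, Entpd1, Nt5e and Gpr83. They are 9 of the 49671 genes in the deposited tables and were picked by name, and Entpd1 was also picked because its share of castaneus reads had been seen to change with stimulation. The values of Entpd1 across the stimulation are therefore given as a description without a test. RNA came from spleens of F1 mus x cast female mice, whose mothers were C57BL/6 (mus) and carried 1 deleted copy of Xist and whose fathers were M. m. castaneus (cast); this cross is labelled a model of skewed X inactivation, and both groups share it. CD3+ T cells were taken with enrichment columns and were either put into TRIzol at once (unstimulated, day 0, 3 libraries) or cultured for 48 h with plate-bound anti-CD3 at 1 µg/ml and soluble anti-CD28 at 10 µg/ml (stimulated, day 2, 3 libraries). The labels call the 3 libraries of a group biological replicates, give no age of the mice, and hold no group cultured without the antibodies, so the effects of culture and of the antibodies cannot be told apart.

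Foxp3 is the transcription factor that defines regulatory T cells, the CD4 T cells that restrain other immune cells, and it lies on the X chromosome. Ikzf2 (Helios) and Ikzf4 (Eos) are Ikaros-family zinc finger factors found with it. Lrrc32 (GARP) holds latent TGF-beta on the cell surface, the integrin chain encoded by Itgb8 helps to release it, and Nrp1 is a coreceptor that binds semaphorins and VEGF. Entpd1 (CD39) and Nt5e (CD73) are surface enzymes that act in sequence, taking extracellular ATP to AMP and AMP to adenosine, and Gpr83 is a G protein-coupled receptor. Several of these genes are not restricted to regulatory T cells. Nrp1, Itgb8 and Entpd1 are also known from dendritic cells, B cells, myeloid cells or endothelium, and Nt5e from B cells and naive CD8 T cells.

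On mm10, GENCODE M21 places all 9 as protein-coding genes. Foxp3 lies at chrX:7573644-7595245 on the plus strand. Ikzf2 lies at chr1:69531214-69687245 on the minus strand and Ikzf4 at chr10:128630843-128645991 on the minus strand. Nrp1 spans chr8:128358604-128503363 (plus), Lrrc32 chr7:98489283-98502181 (plus) and Itgb8 chr12:119158022-119238802 (minus). Entpd1 spans chr19:40612366-40741602 (plus) and has 11 annotated transcripts with 11 different start sites. Nt5e at chr9:88327197-88372092 and Gpr83 at chr9:14860210-14870789, both on the plus strand, share a chromosome. The exons of Foxp3 overlap other genes: 853 bases are shared on the same strand with the noncoding gene Flicr (named Ppp1r3fos in the deposited tables), and 590, 373 and 266 bases with Ccdc22, Gm36995 and Ppp1r3f on the opposite strand. The kit keeps strand, but whether the counting used it is not given in the sources used here.

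The 250 bases before annotated RefSeq start sites (GRCm38.p6) were read for 6 of the 9 members, in 8 windows. The windows of 4 members that the results below turn on are shown, each from a window that touches no exon of a protein-coding gene in GENCODE M21. The sequence is that of the C57BL/6 reference, so it stands for the mus allele. Foxp3 is shown for its X-linked mus copy at chrX:7580233-7580482, which lies within an exon of Flicr, and Nrp1 at chr8:128358823-128359072 for its fall. Entpd1 at chr19:40659520-40659769 and Gpr83 at chr9:14859960-14860209 are shown for their allele shares. All 4 are on the plus strand, and capitals mark a STAT motif match.
Foxp3: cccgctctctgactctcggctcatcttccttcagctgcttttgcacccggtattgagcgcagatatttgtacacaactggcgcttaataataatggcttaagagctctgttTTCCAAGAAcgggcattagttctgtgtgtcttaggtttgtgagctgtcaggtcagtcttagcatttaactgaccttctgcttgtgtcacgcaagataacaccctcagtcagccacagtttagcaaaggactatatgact
Nrp1: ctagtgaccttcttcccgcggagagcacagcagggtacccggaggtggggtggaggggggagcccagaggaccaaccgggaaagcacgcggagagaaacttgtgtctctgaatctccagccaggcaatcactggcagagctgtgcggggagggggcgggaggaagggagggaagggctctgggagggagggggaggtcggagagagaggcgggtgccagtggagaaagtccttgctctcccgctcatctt
Entpd1: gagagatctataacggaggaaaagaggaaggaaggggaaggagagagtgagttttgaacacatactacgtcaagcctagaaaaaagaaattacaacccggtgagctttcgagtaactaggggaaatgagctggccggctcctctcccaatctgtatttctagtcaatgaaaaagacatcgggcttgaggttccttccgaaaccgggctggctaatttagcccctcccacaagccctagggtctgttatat
Gpr83: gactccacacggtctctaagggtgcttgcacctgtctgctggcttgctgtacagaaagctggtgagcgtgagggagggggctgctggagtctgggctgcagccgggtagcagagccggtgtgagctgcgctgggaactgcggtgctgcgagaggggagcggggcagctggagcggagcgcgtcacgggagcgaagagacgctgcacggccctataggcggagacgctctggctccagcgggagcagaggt

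Motifs were searched on both strands and were chosen with the windows in view. The RUNX motif was searched as TGTGGT, the forkhead motif as TGTTTAC, the NFAT motif as GGAAA and the STAT motif as TTCNNNGAA. The TATA box was searched as TATAAA, and for the ETS motif GGAAGT was used. The Foxp3 window shown held 1 STAT match, 139 bases before the start, in letters that overlap an NFAT match at 140 bases. A second Foxp3 window, at chrX:7579426-7579675, is not shown because it touches a coding exon. It held a TATA match at 32 bases and an NFAT match at 205 bases, and no STAT match. Among 32851 such windows of all genes 7.02% held the STAT letters, 55.6% the NFAT letters and 12.4% the TATA letters. The Nrp1 window held 1 NFAT match at 172 bases and the Entpd1 window shown held 2, at 233 and 130 bases. The other Entpd1 window held none of the 6 motifs. The Gpr83 window also held none of them. Among the windows shown, GC content was 46.0% in that of Foxp3, 47.2% in that of Entpd1, 64.4% in that of Nrp1 and 66.8% in that of Gpr83. A match is only a run of letters and says nothing of binding.

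Levels were compared as RPKM, which scales reads by gene length in kilobases and by library size in M (mega) reads, and tested with limma on log2(RPKM + 1) among the 13288 genes with at least 1 RPKM in at least 3 libraries. A gene is called changed where the p-value adjusted by Benjamini-Hochberg over all of them is under 0.05, and 80.1% of genes were: 31.2% higher and 48.9% lower after stimulation. The median log2 fold change of all genes tested was -0.24. Of the 9 members, 7 passed the filter, and Itgb8 and Gpr83 were under 1 RPKM in every library. Foxp3, Nrp1 and Nt5e passed through their unstimulated libraries alone, so the number of members called lower (5, with Entpd1 counted) is no support for a common direction, and their tests are given from the fit over all 25955 genes with no filter, where 53.6% of genes were called and 35.3% were called lower. In all 9 members the 3 unstimulated values did not overlap the 3 stimulated ones, 7 being lower after stimulation and 2 higher. Of the 13288 genes tested, 83.5% did not overlap (50.7% lower and 32.7% higher). That share is over genes past the filter, which leaves out Itgb8 and Gpr83, so the member count is no support for a direction.

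Foxp3 RNA was lower in stimulated cells. Its level was 6.93, 6.08 and 6.48 RPKM in the 3 unstimulated libraries and 0.540, 0.417 and 0.733 RPKM in the stimulated ones. Every unstimulated library was above 6 RPKM and every stimulated one below 1 RPKM. The means were 6.50 ± 0.422 and 0.563 ± 0.159 RPKM (SD, n = 3 each), an 11.5-fold lower level, and the log2 fold change on log2(RPKM + 1) was -2.27 (SE 0.11, limma adjusted p = 2.70e-05 with no filter). In RNA from bulk cells, a smaller fraction of regulatory T cells and less Foxp3 RNA in each of them cannot be told apart. For the members below, a change in the mix of cell types and a change in RNA per cell cannot be told apart.

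Foxp3 was also set against genes of the T cells in the same library. Cd4, the helper coreceptor, was at 58.4 ± 6.11 RPKM in unstimulated and 39.5 ± 2.81 RPKM in stimulated cells (SD, n = 3 each). Foxp3 amounted to 11.7%, 9.50% and 12.5% of the RPKM of Cd4 in the unstimulated libraries and to 1.44%, 1.08% and 1.72% in the stimulated ones. The ratio was thus lower in every stimulated library, 8.03-fold by the mean of log2 ratios (exact two-sided permutation p = 0.1, the smallest that 3 against 3 allows). Against Cd3e, a chain of the T cell receptor complex, it was 6.33-fold lower, and against the mean of 15 T cell markers 11.5-fold lower, with the same smallest exact p of 0.1.

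The reads that could be assigned to a parent give the active and the inactive X apart, because the cross leaves the cast X as the inactive one; Xist, which is transcribed from the inactive X, had 99.9% and 99.96% cast reads in the 2 groups. Foxp3 had 544 mus and 2 cast reads in unstimulated library 1, 375 and 0 in library 2, and 507 and 0 in library 3. The stimulated libraries had 66, 52 and 102 mus reads and no cast read. Cast reads were thus 2 of 1428 in unstimulated cells, a share of 0.140% (95% Clopper-Pearson interval 0.0170% to 0.505%), and 0 of 220 in stimulated cells, which allows a share of up to 1.36%. For a count of 0, the limit here and below is 3 reads of the total. It is smaller than the upper Clopper-Pearson bound, which is 1.66% for 0 of 220. Intervals and limits of this kind cover counting error only. A shift smaller than these limits was not detectable at this depth. The cast share was under 1% in 216 (74.2%) of the 291 genes on the X that had 100 or more reads with a parental origin in each group, so the share of Foxp3 is like that of most of them.

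The fall of Foxp3 was read on its mus copy. It gave 45.7, 39.04 and 43.2 mus reads per M allelic reads in unstimulated cells and 4.43, 2.88 and 5.04 in stimulated cells, groups that do not overlap. The means were 42.6 ± 3.38 and 4.12 ± 1.11 reads per M (SD, n = 3 each), 10.4-fold lower. On mus counts edgeR gave a log2 fold change of -3.06 (SE 0.20, adjusted p = 5.24e-07), in a table where 60.6% of genes were called and 30.3% were called lower. Flicr, which shares exonic bases with Foxp3, was at 0.787, 0.781 and 0.792 RPKM in unstimulated libraries and at 0.178, 0.315 and 0.304 RPKM in stimulated ones, and all of its 290 allelic reads were mus. Reads in the shared bases may have been counted for either gene.

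The Ikaros factors moved in opposite directions. Ikzf2 had 11.3, 9.29 and 10.96 RPKM without stimulation and 2.88, 2.94 and 2.85 RPKM with it. The stimulated values lay close together, well below all unstimulated ones. Its means of 10.5 ± 1.08 and 2.89 ± 0.0466 RPKM (SD, n = 3 each) differed 3.64-fold (log2 fold change -1.56, SE 0.09, limma adjusted p = 8.35e-06). Ikzf4 instead had 1.83, 1.90 and 1.72 RPKM in unstimulated libraries and 6.73, 8.23 and 8.35 RPKM in stimulated ones. All 3 stimulated values were above the unstimulated range. Its means of 1.82 ± 0.0910 and 7.77 ± 0.902 RPKM differed 4.28-fold, higher after stimulation (log2 fold change 1.63, SE 0.10, limma adjusted p = 1.09e-05). Relative to Cd4, Ikzf2 went from 18.2% ± 3.39 to 7.34% ± 0.578 and Ikzf4 from 3.13% ± 0.175 to 19.6% ± 1.67 (SD, n = 3 each). Ikzf2 therefore stood above Ikzf4 in every unstimulated library and below it in every stimulated one.

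Nrp1 fell and Lrrc32 rose. Nrp1 was at 2.75, 2.28 and 2.68 RPKM without stimulation and at 0.191, 0.155 and 0.146 RPKM with it. No stimulated library reached 1 RPKM. The means of 2.57 ± 0.254 and 0.164 ± 0.0238 RPKM (SD, n = 3 each) differed 15.7-fold, and the log2 fold change was -1.61 (SE 0.09, limma adjusted p = 4.76e-05 with no filter). Lrrc32 was at 2.68, 1.96 and 2.28 RPKM in unstimulated libraries and at 6.54, 6.46 and 8.21 RPKM in stimulated ones, which were all higher. Its mean went from 2.31 ± 0.362 to 7.07 ± 0.986 RPKM, 3.06-fold higher (log2 fold change 1.28, SE 0.12, limma adjusted p = 8.76e-05). Itgb8, the other gene here that acts on latent TGF-beta, was low throughout, at 0.687, 0.628 and 0.746 RPKM and then 0.387, 0.244 and 0.346 RPKM. Its means of 0.687 ± 0.0586 and 0.326 ± 0.0740 RPKM differed 2.11-fold without overlap, but it did not enter the test. With a filter of 0.1 RPKM in place of 1 it was called lower (limma adjusted p = 0.00464), while edgeR on its summed allelic reads did not call it (adjusted p = 0.0940). Relative to Cd3e its groups overlapped, 0.927% ± 0.186 against 0.817% ± 0.216 (SD, n = 3 each; exact permutation p = 0.5).

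The enzymes that make adenosine differed in the size of their fall. Nt5e had 9.60, 9.20 and 8.42 RPKM in unstimulated libraries and 0.467, 0.444 and 0.605 RPKM in stimulated ones. It went from near the top of the set to under 1 RPKM in each stimulated library. The means of 9.07 ± 0.595 and 0.506 ± 0.0870 RPKM (SD, n = 3 each) differed 17.9-fold (log2 fold change -2.74, SE 0.09, limma adjusted p = 9.15e-06 with no filter), the largest ratio of means among the 9 members. Entpd1 had 5.58, 6.66 and 6.73 RPKM and then 2.52, 2.75 and 3.82 RPKM. Its stimulated libraries were all lower, and its means of 6.33 ± 0.650 and 3.03 ± 0.694 RPKM differed 2.09-fold, given without a test. Relative to Cd3e, Entpd1 went from 8.51% ± 1.60 to 7.501% ± 1.26 with overlapping groups, whereas Nt5e went from 12.1% ± 0.754 to 1.26% ± 0.159 (SD, n = 3 each). On summed allelic reads the log2 fold change of Entpd1 was -0.36 with edgeR, smaller than the -0.87 on log2(RPKM + 1).

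Gpr83 had the smallest ratio of means among the 9 members. It had 0.803, 0.763 and 0.914 RPKM in unstimulated libraries and 0.431, 0.496 and 0.587 RPKM in stimulated ones, lower in all 3. The means of 0.827 ± 0.0781 and 0.505 ± 0.0780 RPKM (SD, n = 3 each) differed 1.64-fold. Under the filter of 1 RPKM it was not tested. With the filter of 0.1 RPKM it was called lower (limma adjusted p = 0.0151), and edgeR on summed allelic reads did not call it (adjusted p = 0.166). Against Cd4 it stood at 1.44% ± 0.293 and 1.27% ± 0.110, and against Cd3e at 1.12% ± 0.241 and 1.25% ± 0.113 (SD, n = 3 each; exact permutation p = 0.5 for each), so its direction depends on the gene it is set against.

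**Figure D1:**
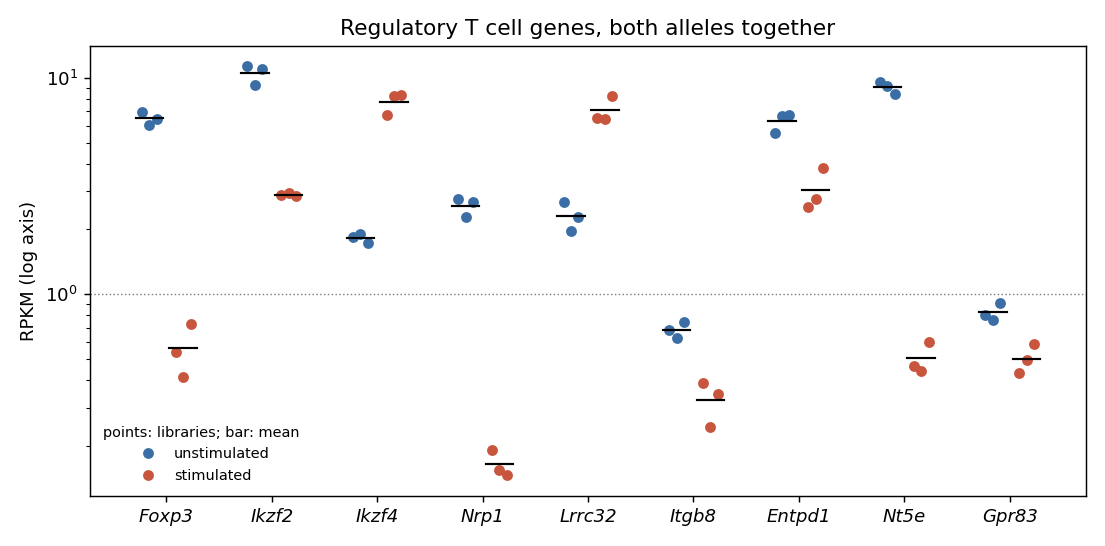
RPKM of the 9 members on a log axis, 1 point per library and a bar at the group mean, with unstimulated libraries in blue and stimulated ones in red; the dotted line is the filter of 1 RPKM. Ikzf4 and Lrrc32 are the members with the red points above the blue, and Foxp3, Nrp1 and Nt5e go from above the line to below it.

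The order of the levels within a group changed as well. In unstimulated cells, by mean RPKM, the order was Ikzf2, Nt5e, Foxp3, Entpd1, Nrp1, Lrrc32, Ikzf4, Gpr83 and Itgb8. The ranges over libraries overlapped between Ikzf2 and Nt5e, between Foxp3 and Entpd1, and between Nrp1 and Lrrc32, so those neighbours did not differ beyond their spread. In stimulated cells the order was Ikzf4, Lrrc32, Entpd1, Ikzf2, Foxp3, Nt5e, Gpr83, Itgb8 and Nrp1. Here Ikzf4 overlapped Lrrc32, Entpd1 overlapped Ikzf2, and Nt5e overlapped both Foxp3 and Gpr83.

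As a description, log2(RPKM + 1) of every gene tested was correlated with that of Foxp3 over the 6 libraries, which differ mainly by group. The most similar were Trim11, a ubiquitin ligase (Pearson r = 0.9997), the T cell receptor joining segment Traj31, Calcoco1, Ankrd16 and the BH3-only gene Bmf. Such values are common here: 1564 of 13287 genes had r over 0.99. Among the members r was 0.998 for Nt5e, 0.996 for Nrp1, 0.994 for Ikzf2 and 0.949 for Entpd1, and it was negative for Ikzf4 (-0.99) and Lrrc32 (-0.96). Over 6 libraries in 2 groups, r mostly repeats the direction of the change.

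The autosomal members could be read from both parental alleles. A change in the cast share between groups was tested with edgeR over 12470 autosomal genes, with 1 term per library, and 10.4% of genes passed at an adjusted p under 0.05, 5.73% towards cast and 4.69% towards mus. The share of cast against mus within a group passed in 30.2% of genes in unstimulated and 35.5% in stimulated cells. Same-numbered libraries of the 2 groups deviated together in their allele ratios (correlations 0.282, 0.298 and 0.182 over 9043 genes). The fit of the share change with a replicate block is therefore given where it changes a call. The block was not fitted to the shares within a group. Of the 7 autosomal members tested for a share change, which leaves out Entpd1, only Nt5e passed.

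Nt5e moved towards its cast allele while both alleles fell. Its cast share was 56.0%, 58.4% and 60.7% in unstimulated libraries, from 1290 to 1802 allelic reads each, and 80.6%, 71.9% and 79.4% in stimulated ones, from 93 to 209 reads. All stimulated shares were above all unstimulated ones. The means were 58.4% ± 2.36 and 77.3% ± 4.76 (SD, n = 3 each), and log2 of cast over mus rose by 1.28 (SE 0.19, edgeR adjusted p = 0.000421). Mus reads went from 56.8 ± 9.49 to 1.81 ± 0.524 per M allelic reads, 31.3-fold lower, and cast reads from 79.0 ± 5.54 to 6.20 ± 1.74, 12.7-fold lower. Cast exceeded mus in both groups (edgeR adjusted p = 0.00168 and 6.61e-07).

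Entpd1, chosen for its share, changed which allele was the more abundant. The cast share was 31.0%, 29.9% and 28.8% in unstimulated libraries, from 652 to 843 reads, and 69.1%, 71.9% and 71.1% in stimulated libraries, from 517 to 1080 reads. The means of 29.9% ± 1.08 and 70.7% ± 1.48 (SD, n = 3 each) lie 40.8 percentage points apart, and log2 of cast over mus differed by 2.50. On the scale of allelic reads its 2 alleles moved in opposite directions: mus reads went from 41.2, 47.6 and 51.1 per M allelic reads to 10.7, 10.6 and 15.4, while cast reads went from 18.5, 20.3 and 20.7 to 24.0, 27.1 and 37.9. That is 3.81-fold lower for mus and 1.496-fold higher for cast by the means, without overlap in either allele. When the RPKM of each library was split by its allele share, a scaling added after the data were seen, mus was 5.01-fold lower, but cast went from 1.73, 1.99 and 1.94 RPKM to 1.74, 1.97 and 2.72 RPKM, so its groups overlapped. Among 12470 autosomal genes, 1374 (11%) moved by at least 15 points in either direction, and 37 went from a mean cast share under 35% to one over 60%. Entpd1 ranked 75th by the points moved. The files hold no counts per transcript, so which of its 11 annotated start sites was used by each allele was not measured.

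**Figure D2:**
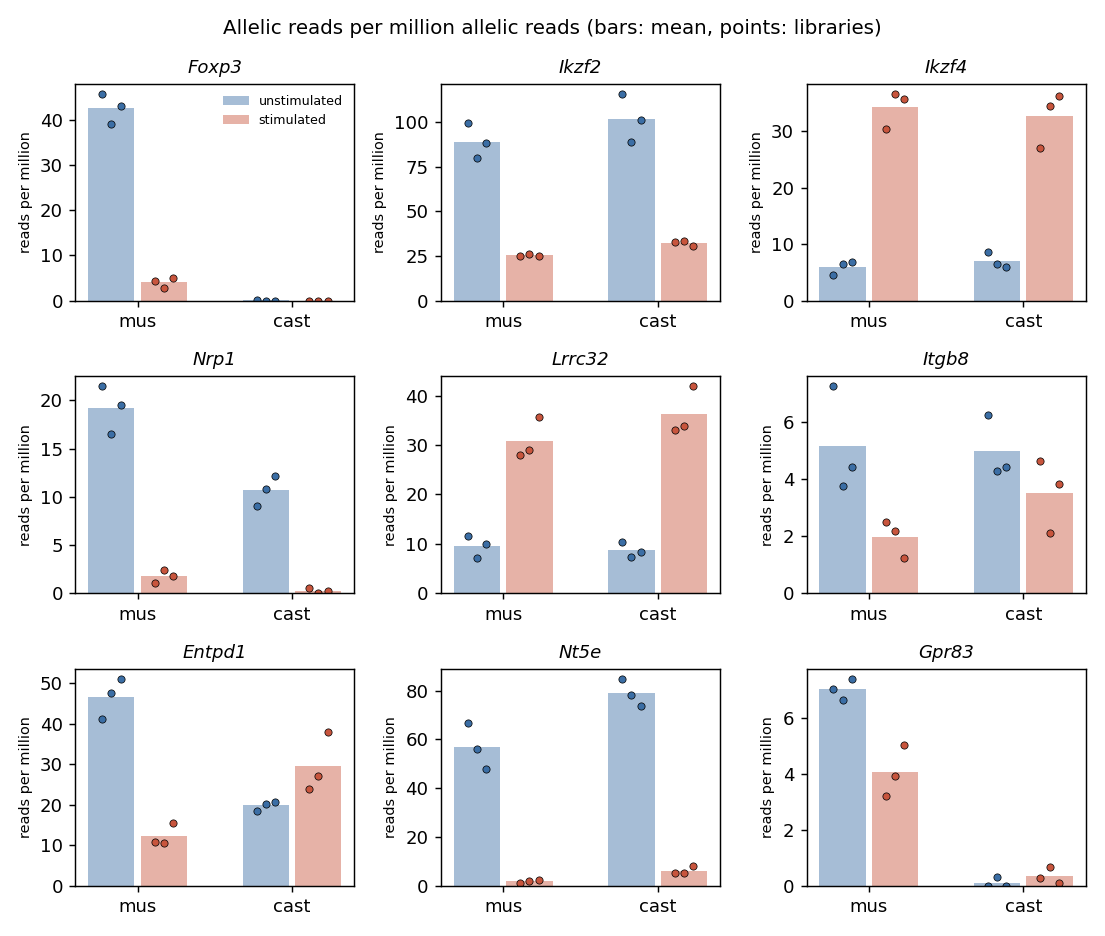
Mus and cast reads per M allelic reads for each member, with bars at the group mean and 1 point per library, unstimulated in blue and stimulated in red. On this scale the red bar of Entpd1 is below the blue for mus and above it for cast, whereas its cast groups overlapped in RPKM split by allele share; Foxp3 and Gpr83 have almost no cast reads.

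Gpr83 was read almost wholly from the mus allele although it is autosomal. Unstimulated libraries had 84, 64 and 87 mus reads against 0, 3 and 0 cast reads, and stimulated libraries had 48, 71 and 102 mus reads against 4, 12 and 2 cast reads. Mus reads were the great majority in each library, and the counts of 0 allow cast shares of up to 3.57% and 3.45%. The mean cast share was 1.49% ± 2.59 and 8.02% ± 6.27 (SD, n = 3 each), with libraries that overlapped, and its change did not pass (edgeR adjusted p = 0.190). Mus exceeded cast in both groups (edgeR adjusted p = 1.28e-05 and 0.000114). A mean cast share under 10% in both groups was seen in 105 of 12470 autosomal genes, 0.842%. At 52 to 104 allelic reads per library, single shares are known only to several points.

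Nrp1 also had more mus than cast reads. The unstimulated libraries had cast shares of 29.8%, 39.5% and 38.4% from 263 to 372 reads (mean 35.9% ± 5.36, SD, n = 3). The stimulated libraries had 34.8%, 0% and 9.76% from only 23, 44 and 41 reads, so 1 of them lay within the unstimulated range and the other two far below. The 0 of 44 reads allows a share of up to 6.82%. The change in log2 of cast over mus was -2.06 (SE 0.67) and did not pass (edgeR adjusted p = 0.0666); it passed with the replicate block (adjusted p = 0.00570) and without stimulated replicate 1 (-3.38, adjusted p = 0.00894). Without stimulated replicate 2 the change was -1.19 (adjusted p = 0.253), and with DESeq2 it did not pass (adjusted p = 0.327). The excess of mus passed in stimulated cells (edgeR adjusted p = 0.00105). In unstimulated cells it passed narrowly (adjusted p = 0.0425) and was lost on leaving out any 1 unstimulated library (0.0981 to 0.292).

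The remaining members did not pass for a share change, and Itgb8 was the least even of them after stimulation. Ikzf2, with 863 to 2556 allelic reads per library, had a cast share of 53.3% ± 0.547 in unstimulated and 55.8% ± 0.953 in stimulated cells (SD, n = 3 each; change adjusted p = 0.408, edgeR). Its small excess of cast passed in stimulated cells (edgeR adjusted p = 0.00133) and in unstimulated cells (adjusted p = 0.0342), the latter lost without any 1 unstimulated library (0.0713 to 0.160). Ikzf4 had 53.9% ± 10.1 and 48.7% ± 1.63 cast reads (edgeR adjusted p = 0.483 for the change), with unstimulated library 1 at 65.4% and the other two at 50% and 46.3%. Lrrc32 had 47.8% ± 2.31 and 54.1% ± 0.174 (adjusted p = 0.171), with all stimulated libraries above the unstimulated ones. Itgb8 spread widely after stimulation, at 65.1%, 49.4% and 75.5% from 77 to 106 reads, against 49.8% ± 3.501 before it (edgeR adjusted p = 0.277 for the change).

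**Figure D3:**
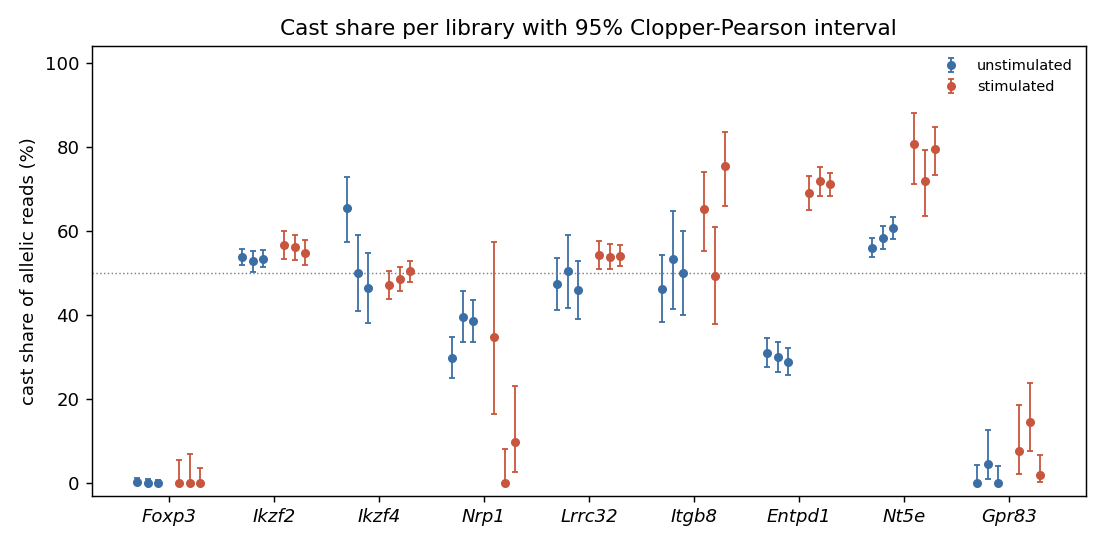
Cast share of allelic reads in percent for each member and library, with 95% Clopper-Pearson intervals, unstimulated in blue and stimulated in red; the dotted line marks equal shares. Entpd1 crosses the line between the groups, Nt5e moves further above it, and Nrp1 has wide intervals after stimulation.

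Genes around these members were counted in 8 lists, which together held 123 tested genes outside the member set, 61 of them higher and 47 lower. That is 87.8% called, beside 80.1% of all genes tested (31.2% higher and 48.9% lower). Some list genes passed the filter through 1 group alone, so these counts are no support for a common direction. With no filter on low values, 62 of 137 list genes were higher and 54 lower. In that fit 53.6% of all genes were called and 35.3% were called lower. The regulators and partners of Foxp3 went both ways: of 32 tested, 11 rose, 15 fell and 6 did not pass, and their median was -0.20 on the log2 scale (all genes: -0.24). Ranked on log2(RPKM + 1), as in all lists here, the largest rises were Uhrf1, a maintenance factor of DNA methylation (11.5 ± 8.61 to 79.4 ± 2.41 RPKM, SD, n = 3 each; limma adjusted p = 0.000624), the orphan receptor Nr4a3 (7.33 ± 1.68 to 37.0 ± 3.41 RPKM) and Stat5a, which carries the signal of IL-2 (10.9 ± 0.662 to 48.3 ± 1.57 RPKM). The unstimulated value of Uhrf1 was 21.5 RPKM in library 3 and 6.02 and 7.13 RPKM in the others. The largest falls were Runx1, a DNA-binding partner of Foxp3 (15.8 ± 2.02 to 3.74 ± 0.387 RPKM), Smad4, the shared SMAD of TGF-beta signalling (40.4 ± 2.66 to 14.2 ± 0.584 RPKM), and Foxp1, a forkhead factor of naive T cells (34.5 ± 0.914 to 13.1 ± 0.344 RPKM). By ratio of means, Hdac9, named after its values were seen, fell further, 17.3-fold from 1.39 ± 0.323 to 0.0802 ± 0.0340 RPKM. Hdac9 passed the filter through its unstimulated libraries alone. After centring each library on its median, the list of regulators and partners stood at 15 higher and 13 lower, with a median of 0.06. Over all 13288 genes the same centring gave 5432 higher and 5206 lower, with a median of 0.02. The remaining Ikaros family genes Ikzf1, Ikzf3 and Ikzf5 were all called lower, by 1.90-fold, 1.42-fold and 1.40-fold in mean RPKM, but the calls of Ikzf3 and Ikzf5 were lost with edgeR and DESeq2 on summed allelic reads.

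Most of the surface receptors listed for regulatory T cells rose. Of 21 tested, 15 rose, 5 fell and 1 did not pass, with a median log2 fold change of 1.73, where 31.2% of all genes tested rose and 48.9% fell. Il2ra (CD25), the high-affinity chain of the IL-2 receptor, went from 4.96 ± 0.254 to 284 ± 13.3 RPKM (SD, n = 3 each), 57.3-fold higher. The chemokine receptor Ccr8 rose 68.4-fold, from 1.17 ± 0.371 to 79.7 ± 4.66 RPKM. It was near 1 RPKM without stimulation, so the filter favoured a rise in it. The costimulator Tnfrsf9 rose 33-fold, from 3.37 ± 0.300 to 111 ± 2.01 RPKM. These receptors are also known on activated conventional T cells. Those with the largest falls were Itgae (CD103), an integrin chain that binds E-cadherin (7.74 ± 0.559 to 0.195 ± 0.0458 RPKM), the inhibitory receptor Klrg1 (4.66 ± 1.05 to 0.456 ± 0.221 RPKM) and the chemokine receptor Ccr6 (2.53 ± 0.899 to 0.202 ± 0.0338 RPKM). Itgae, Klrg1 and Ccr6 averaged under 1 RPKM after stimulation. The filter therefore favoured a fall in them, and their direction is a description only. For secreted factors, 5 of 7 tested rose and 1 fell, with a median of 1.37. The rises were led by the protease Gzmb, from 18.4 ± 2.25 to 2090 ± 51.0 RPKM, and the cytokine Il10, from 0.831 ± 0.198 to 19.8 ± 2.44 RPKM, followed on that scale by the lectin Lgals1 at 2.63-fold. Penk, named after its values were seen, rose more than Lgals1 by ratio of means, 9.87-fold from 0.223 ± 0.166 to 2.20 ± 0.794 RPKM. Il10 and Penk averaged under 1 RPKM without stimulation, so the filter favoured a rise in them. Fgl2, a secreted fibrinogen-like protein, fell from 26.5 ± 3.34 to 1.83 ± 0.4996 RPKM.

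Genes that work with Lrrc32 and Itgb8 on latent TGF-beta split evenly: of 10 tested, 5 rose and 5 fell, with a median of -0.40. Over all genes tested, beside which each list of this paragraph stands, 31.2% rose, 48.9% fell and the median was -0.24. Furin, the protease that matures TGF-beta, rose 3.18-fold, Tgfb3 3.54-fold and Hsp90b1, a chaperone of GARP and integrins, 1.93-fold (limma adjusted p = 6.93e-06, 0.00199 and 0.000559). Smad7, an inhibitor of the receptor, fell 4.96-fold, Tgfbr2, a receptor chain, 4.08-fold, and Nrros, which anchors latent TGF-beta in myeloid cells, 2.69-fold. The adenosine list, around Entpd1 and Nt5e, held 21 tested genes, of which 9 rose, 9 fell and 3 did not pass (median 0.02). After median centring it stood at 11 higher and 8 lower, where 5432 of all 13288 genes were higher and 5206 lower. Ahcy, which hydrolyses S-adenosylhomocysteine to adenosine, rose 5.48-fold, Adsl of purine synthesis 3.33-fold and the adenosine receptor Adora2b 3.43-fold. The nucleoside transporter Slc28a2 fell 5.67-fold, the AMP deaminase Ampd3 7.18-fold and the surface peptidase Dpp4 (CD26) 3.60-fold. Around Nrp1, 6 of 11 tested ligands and partners rose and 3 fell (median 0.16). Vegfa rose from 1.01 ± 0.177 to 11.4 ± 0.715 RPKM, and Gipc1, which binds the tail of neuropilin, and Vegfb each 1.73-fold. Vegfa was near 1 RPKM without stimulation, so the filter favoured a rise in it. Sema4a fell 5.88-fold and Plxnb2 2.13-fold. Of 19 other signature genes tested, 11 rose and 6 fell (median 0.60), led by Irf4, Dusp4 and Nfil3 at 14.2-fold, 16.2-fold and 12.9-fold higher and by Trib1, Rora and Gpr15 at 4.77-fold, 4.45-fold and 6.35-fold lower.

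**Figure D4:**
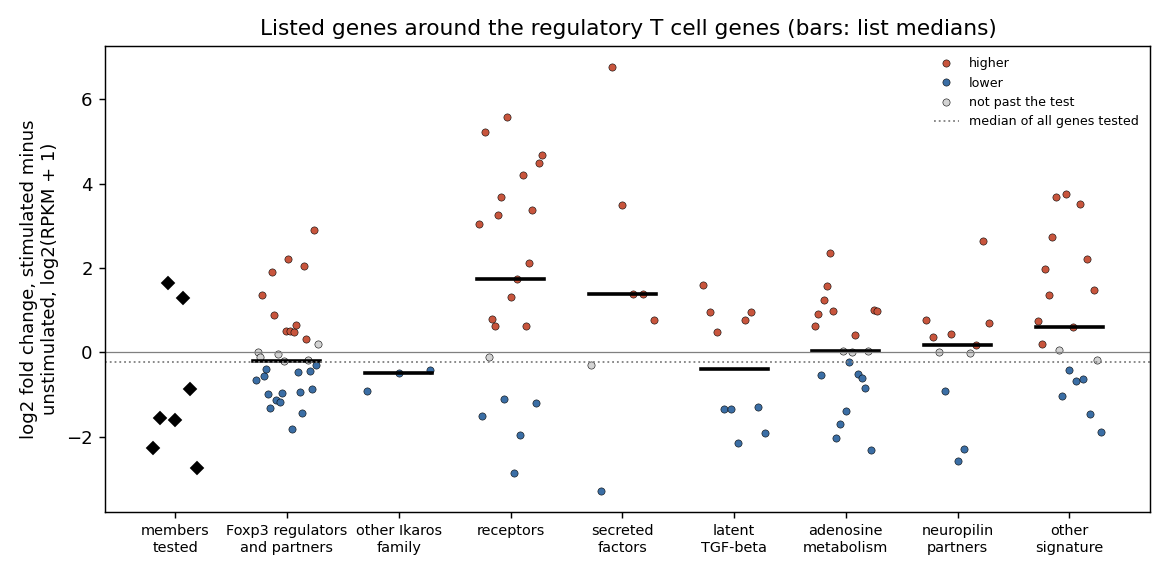
Log2 fold change on log2(RPKM + 1), stimulated minus unstimulated, for each tested gene of the 8 lists and for the 7 members tested (diamonds); bars are list medians and the dotted line is the median of all genes tested, -0.24. The receptor and secreted-factor lists have medians of 1.73 and 1.37, while the regulators of Foxp3 lie on both sides of 0.

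Markers of other cells also differed between the groups, and their part in the results above was not tested. Over all genes tested, 31.2% were higher and 48.9% lower. Only 4 of 16 myeloid, 9 of 16 B cell, 3 of 14 dendritic and 8 of 13 NK cell markers reached 1 RPKM in every stimulated library. No erythroid or platelet marker did. The filter favoured a fall in many of the others, so the counts of markers called are no support for a direction. The 15 T cell markers were all detected, 4 higher and 5 lower, with a summed level of 1793 to 2202 RPKM in unstimulated and 1931 to 2010 RPKM in stimulated libraries. The 7 genes of the CD4 and CD8 lineages summed to 278 to 356 RPKM and then 209 to 223 RPKM (1 higher, 6 lower). All 16 myeloid markers were lower, from summed levels of 1512 to 3955 RPKM to 21.4 to 29.2 RPKM, with Adgre1 at 0 after stimulation, and 15 of 16 B cell markers were lower, from 1060 to 1592 RPKM to 99.0 to 186 RPKM. For dendritic cells 11 of 14 markers were lower and 3 higher, with sums of 103 to 127 RPKM and then 100.4 to 116 RPKM. The higher ones, Bst2, Irf8 and Batf3, also had the highest means of that list. Xcr1, Clec9a, Siglech and Cd209a were at 0 after stimulation. For NK cells 11 of 13 were lower and 2 higher (623 to 769 RPKM, then 421 to 469 RPKM). Erythroid and platelet markers summed to 90.0 to 1412 RPKM and then 2.54 to 15.6 RPKM (8 of 9 tested lower; Gp1bb at 0 after stimulation). Of 12 stromal and endothelial markers only Pecam1 was tested, and it was lower (means of 25.3 and then 4.71 RPKM). Pecam1 made up most of the sums, which were 26.6 to 29.6 RPKM and 3.89 to 5.88 RPKM. Col3a1 and Dcn were at 0 in all libraries, and Emcn and Cxcl12 were at 0 after stimulation. Unstimulated library 3 had the highest B cell, myeloid, dendritic, NK cell and erythroid sums. It had the lowest T cell sum (1793 RPKM), and among the unstimulated libraries the lowest CD4 and CD8 lineage sum (278 RPKM). Among these it also had the highest levels of Entpd1, Itgb8 and Gpr83 and the lowest of Nt5e and Ikzf4. Its levels of Foxp3, Ikzf2, Nrp1 and Lrrc32 lay between those of the other unstimulated libraries. Allelic depth was 9.61 M to 11.9 M reads in unstimulated and 14.9 M to 20.2 M reads in stimulated libraries.

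**Figure D5:**
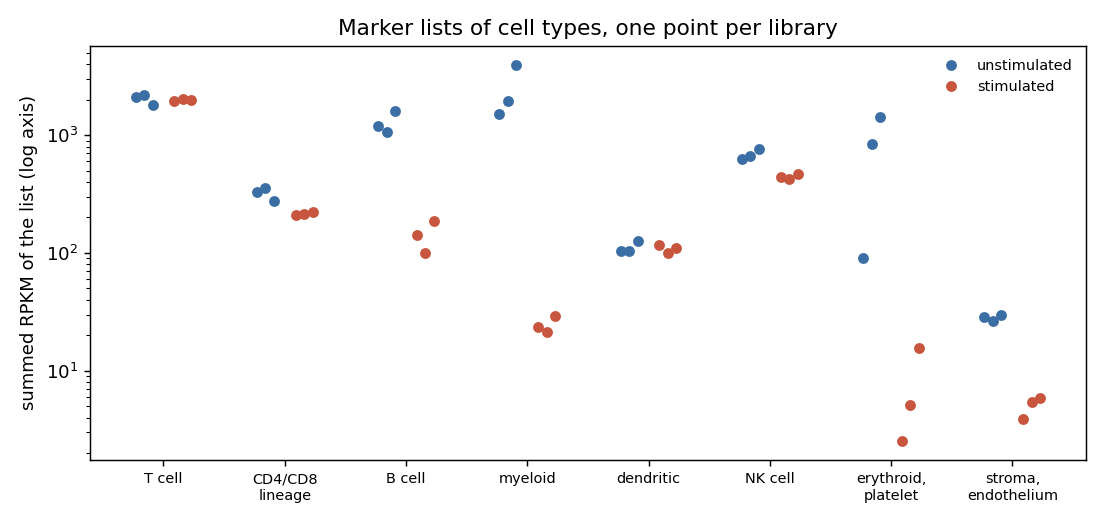
Summed RPKM of 8 cell type marker lists on a log axis, 1 point per library, unstimulated in blue and stimulated in red. The T cell sums overlap between the groups, whereas the myeloid, B cell, erythroid and stromal sums are lower in all 3 stimulated libraries. The stromal sums are mostly Pecam1.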

How the data were processed

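RNA of 6 libraries was read from 2 deposited tables. Per the submitters' processing notes, STAR 2.7.1a and featureCounts were used with mm10. RPKM of both alleles together and counts of reads assigned to the mus or cast allele were made by the authors, per the file headers. The sources used here do not state the rule for assigning an allele, the gene lengths, the RPKM denominator or the strand setting. Identifiers matched GENCODE M21 for 49326 of 49671 genes (99.3%).

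Levels were tested with limma 3.58.1 in R 4.3.3, two-sided with a trend, as log2(RPKM + 1) of genes that reached 1 RPKM in 3 libraries. Allele shares and mus counts were tested two-sided by the quasi-likelihood method of edgeR 4.0.16; shares used at least 30 allelic reads per group and 1 term per library, and mus counts at least 10 reads in all with TMM factors. Adjustment was by Benjamini-Hochberg over all genes tested, separately for autosomal and X-linked genes in the share test, with a threshold of 0.05. Fold values are ratios of group means, except those relative to Cd4, Cd3e or the T cell markers. DESeq2 1.42.0 served as an alternative, and the fits were tested on simulated data. Same-numbered libraries did not pair in level (correlations 0.00603, 0.0611 and 0.0908) and did in allele ratio, where the labels do not say whether they share a mouse; p-values measure the spread between these libraries.

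All members are named. From each list the 3 largest rises and falls past the threshold without overlap are named, and the 5 genes most correlated with Foxp3; 1 gene that the rule names is not reported here. The members and lists were chosen with earlier results of these data known.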

Additional observations from a re-analysis of the deposited data

Results flagged for a closer look

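The allele contrast of Entpd1 differed between the groups: log2 of cast over mus was -1.23 in unstimulated and 1.27 in stimulated cells, a difference of 2.5. In all 3 unstimulated libraries mus reads exceeded cast reads, and in all 3 stimulated libraries cast reads exceeded mus reads. The gene was chosen for this change, so the value is a description.

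The allele contrast of Nt5e also differed between the groups, in a fit with an interaction of allele and group. Log2 of cast over mus was 0.49 in unstimulated and 1.76 in stimulated cells, a difference of 1.28 (edgeR adjusted p = 0.000421), with the cast share higher in all 3 stimulated libraries than in any unstimulated one.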

How the results depend on the processing

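Leaving out 1 library at a time, 2 to 5 members were called lower, with Entpd1 counted, and 2 were called higher each time. The lower count fell to 2 without each unstimulated library in turn, where Foxp3, Nrp1 and Nt5e no longer had 3 libraries at the RPKM minimum. Over the same omissions 116 to 120 list genes were tested, with 40 to 47 lower and 55 to 62 higher. Of all genes, 11438 to 12931 were tested in these fits, with 4522 to 6168 called lower and 3464 to 4465 higher. These counts are no support for a direction. Entpd1 was chosen on its shares and is left out of the count of members with unequal alleles. Ikzf2, Nrp1, Nt5e and Gpr83 passed in both groups, where 30.2% of autosomal genes passed in unstimulated and 35.5% in stimulated cells. In unstimulated cells only Nt5e and Gpr83 of them still passed without any 1 unstimulated library, where 22.7% to 24.1% of autosomal genes passed. The same was so with DESeq2, where 23.7% of autosomal genes passed. In stimulated cells Ikzf2, Nrp1, Nt5e and Gpr83 passed with DESeq2, where 29% of autosomal genes passed. They also passed on leaving out any 1 library, where 28.3% to 36.1% of autosomal genes passed. With a replicate block 2 members passed for a share change in place of 1, since Nrp1 joined Nt5e, where 13.2% of autosomal genes passed. Leaving out a library gave 1 to 2, where 7.86% to 8.76% of autosomal genes passed. The block changed no other member's call in level or share change. It was not fitted to cast against mus within a group. On levels the block gave 59 list genes higher and 48 lower, where 4048 of all 13288 genes were higher and 6416 lower. The mus level of Foxp3 ranged from -3.27 to -2.86 in log2 fold change. Foxp3 relative to Cd4, -3.01 in log2, ranged from -3.16 to -2.83, and was -2.66 relative to Cd3e and -3.53 relative to the T cell markers. Directions that reversed, all for values that did not pass, were the level of Ikzf5 (0.0140, edgeR on summed allelic counts, where its main call was lost), cast against mus in unstimulated cells for Itgb8 (0.0114 with an offset to the autosomal cast share, 0.0891 without unstimulated replicate 1, down to -0.115 without another) and for Ikzf4 (-0.112 without that library, up to 0.478 without another), and the share change of Ikzf4 (0.0374 without that library, down to -0.552 without another). Median centring and quantile normalisation kept the direction and call of the 6 tested members besides Entpd1. Over the 7 with Entpd1 they gave a median log2 fold change of -1.30 and -0.92 against -1.56, and quantile normalisation moved Nrp1 from -1.61 to -0.92. The size also depends on the 1 RPKM added before the log. With 0.1 RPKM added instead, Nrp1 stood at -3.34 and Foxp3 at -3.34 (-2.27 as reported). On summed allelic counts edgeR gave -3.58 for Nrp1. In stimulated cells, Lrrc32 and Itgb8 passed for an excess of cast with the offset (adjusted p = 0.0389 and 0.0483), and Itgb8 also without stimulated replicate 2 (0.0134). The causes were not tested. Depth limits the shares of Nrp1, Itgb8 and Gpr83, and the share of Foxp3 after stimulation.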
